A study of Mus musculus with 6 samples.

Results

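The leukocyte integrins and CD45 are surface proteins by which microglia, the resident macrophages of the brain, are recognised and sorted. The 10 genes described here were taken by symbol from the 16179 genes of the deposited table: the integrin subunits Itgam, Itgb2, Itgax, Itgal, Itga4, Itga6, Itga9, Itgav and Itgb1, and Ptprc, which encodes CD45. All 10 were found, and all 10 were among the 12821 genes that passed a filter on low values (a mean of at least 10 normalised reads over the 6 libraries).

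RNA was sequenced from hippocampal microglia of male mice aged 10 months and of strain B6.129S4(FVB)-Grntm1.1Far/Mmja, which lack progranulin (gene Grn). Both groups carry this knockout, and no library of mice with intact Grn was analysed here. Live CD11b+CD45lo cells were collected by flow cytometry and parted with BODIPY, a dye for neutral lipid, into BODIPY-low (lipid droplet-low) and BODIPY-high (lipid droplet-high) fractions. Each group has 3 libraries, each from the pooled hippocampi of 2 mice, and a shared pool behind a low and a high library is not stated. The p-values therefore measure only the spread between these libraries. CD11b, the product of Itgam, and CD45 were themselves used to gate the cells of both groups, but the gate reads protein on the cell surface, and the values below are of RNA.

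Integrins are pairs of an alpha and a beta subunit that bind matrix proteins, complement fragments or adhesion proteins of other cells. The beta2 subunit (CD18, Itgb2) is restricted to leukocytes and pairs with CD11b (Itgam) as complement receptor 3, with CD11c (Itgax) and with CD11a (Itgal). The beta1 subunit (Itgb1) pairs with many alpha subunits, among them those of Itga4, Itga6, Itga9 and Itgav. CD45 is a receptor-type tyrosine phosphatase of leukocytes that acts on Src family kinases, and microglia display less of it than most other leukocytes.

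Promoter sequence is shown for Itgam and Ptprc, which encode the proteins of the sort gate, and for Itgax, the gene next to Itgam on chromosome 7. Windows end at the RefSeq start of transcription or just before the first annotated exon base (GRCm38.p6, written 5′ to 3′ on the strand of the gene). Capitals mark GAGGAA on either strand, the core of a site of PU.1, a transcription factor of myeloid cells that is known to act on the Itgam promoter. The windows are chr7:128062390-128062639 (plus strand) for Itgam, chr1:138175307-138175555 (minus strand) for Ptprc and chr7:128129300-128129546 (plus strand) for Itgax.
Itgam: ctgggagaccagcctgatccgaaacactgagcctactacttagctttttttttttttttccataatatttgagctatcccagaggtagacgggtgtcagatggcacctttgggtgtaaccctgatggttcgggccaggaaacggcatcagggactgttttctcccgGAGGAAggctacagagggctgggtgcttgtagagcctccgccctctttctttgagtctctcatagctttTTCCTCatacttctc
Ptprc: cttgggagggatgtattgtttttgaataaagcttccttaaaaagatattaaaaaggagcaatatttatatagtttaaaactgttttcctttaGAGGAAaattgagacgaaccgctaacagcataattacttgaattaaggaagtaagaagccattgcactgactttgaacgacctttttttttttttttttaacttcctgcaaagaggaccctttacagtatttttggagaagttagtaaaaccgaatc
Itgax: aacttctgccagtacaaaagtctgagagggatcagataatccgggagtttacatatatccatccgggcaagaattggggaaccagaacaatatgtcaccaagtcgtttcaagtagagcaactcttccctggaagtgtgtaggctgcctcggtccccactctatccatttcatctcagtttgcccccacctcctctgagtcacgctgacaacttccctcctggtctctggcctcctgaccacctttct
In these windows of at most 250 bases Itgam had 2 matches, Ptprc 1 and Itgax 0. The RefSeq table held entries for 7 of the 10 genes, with 8 start sites in all, and 4 of the 8 windows had a match, against 23.3% of the 32851 promoter windows of the table. The matching windows were those of Itgam, Itgav, Itgb1 and the start of Ptprc shown. The window of the other Ptprc start overlaps the one shown and had 0 matches. The Ptprc window shown lies upstream of a RefSeq start but within the annotated span of the gene (138062861 to 138175708). The Itga9 window (118711442 to 118711691 on chromosome 9), which had 0 matches, also lies within the annotated span of its gene (118606690 to 118901003). It holds 35 annotated exon bases. A match is a string of letters and not a measured binding site. Itgb2, Itgal and Itga6 had no entry.

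Of the 10 genes, 3 were lower in BODIPY-high than in BODIPY-low libraries, namely Itgam, Itga9 and Ptprc, and 0 were higher. Genes were called with limma at a Benjamini-Hochberg adjusted p below 0.05 over all 12821 tested genes, of which 3.52% were called lower and 9.79% higher. Log2 fold changes are BODIPY-high minus BODIPY-low on the log2(normalised read count + 1) scale, and their median was -0.34 over the 10 genes and -0.01 over all tested genes. For 6 of the 10 genes all 3 BODIPY-high libraries lay below all 3 BODIPY-low libraries, which held for 13.4% of all tested genes. The reverse held for 0 of the 10 and for 18.0% of all tested genes. edgeR, another test run on whole reads recovered from the table, called 3 of the 10 lower (3.33% of all tested genes), and DESeq2 called 6 (5.23%). At an unadjusted p below 0.05, 8 of the 10 genes were lower, as were 1416 of the 12821 tested genes, and 0 were higher, against 16.1% of all tested genes. Neither edgeR nor DESeq2 called any of the 10 higher. Besides Itgam, Itga9 and Ptprc, DESeq2 called Itgb1 (DESeq2 adjusted p = 0.0239), Itga6 (0.0316) and Itgav (0.0415) lower. Since the RNA comes from bulk cells, fewer cells of a type and less RNA per cell cannot be told apart.

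**Figure D1:**
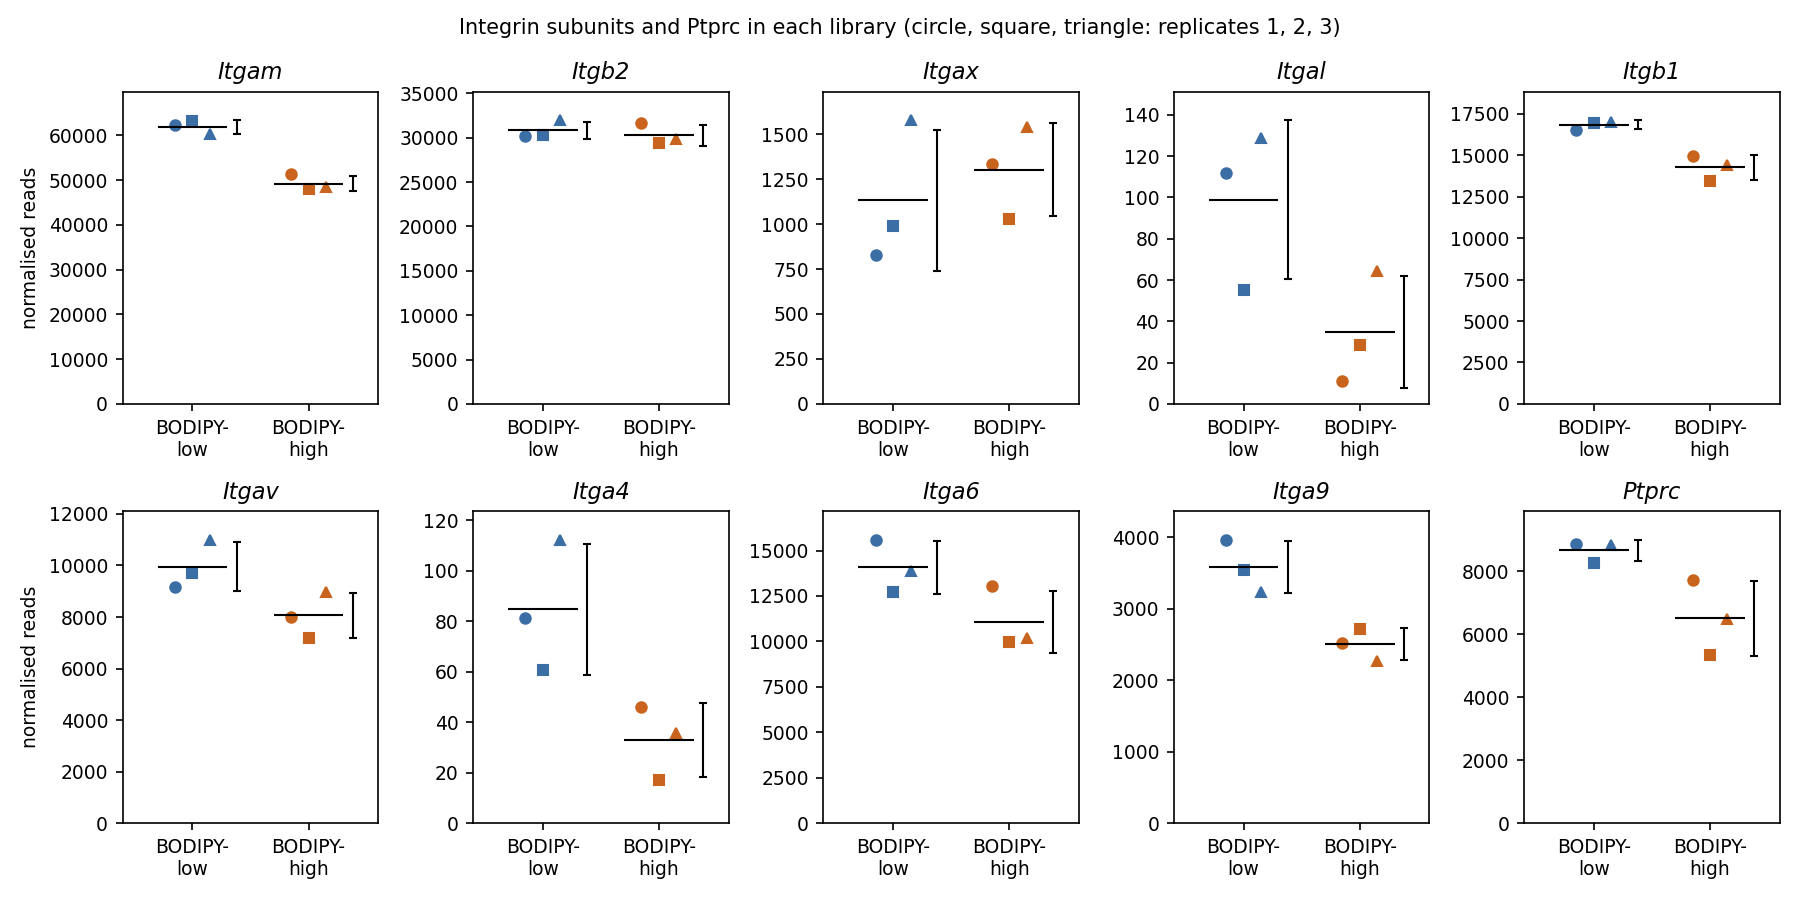
Normalised reads (vertical axes, from 0) of the 10 genes in the 3 BODIPY-low (blue) and 3 BODIPY-high (orange) libraries. Points are libraries, horizontal lines group means and bars to the right 1 SD. The groups are apart in Itgam, Itgb1, Itgav, Itga4, Itga9 and Ptprc, and overlap in Itgb2, Itgax, Itgal and Itga6.

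Depth ranged from 24982215 to 34899425 recovered reads per library. All 12 microglia markers were present, and their summed normalised reads were 1699740.3 to 1948365 in BODIPY-low and 1519155 to 1651161 in BODIPY-high libraries, so the groups did not overlap. Of the 12 markers 2 fell (Gpr34 and Cx3cr1) and 0 rose, with a median log2 fold change of -0.18. All 10 choroid plexus markers rose (median log2 fold change 4.60), from a summed 3774 to 18728 normalised reads in BODIPY-low to 151884 to 265953 in BODIPY-high libraries. Of 10 tested neutrophil markers 8 fell (median -5.71), and Ly6g, the antigen that defines mouse neutrophils, is not analysed here. Csf3r, a neutrophil marker with 15687 to 22787 normalised reads in every library, did not pass (log2 fold change -0.12, adjusted p = 0.645). Without Csf3r the other 9 summed to 29712 to 79256 in BODIPY-low and 197 to 2292 in BODIPY-high libraries. Of 7 tested monocyte markers 4 fell (median -4.10), and of 9 border macrophage markers 2 rose (median 1.08). The part of other cells in the results below was not tested.

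Among the subunits that form beta2 integrins, the CD11b gene fell and its beta partner did not pass the test. Itgam (ENSMUSG00000030786.18, chromosome 7, 128062640 to 128118491, plus strand) had 62194, 63141 and 60226 normalised reads across the BODIPY-low libraries, and 51262, 48040.5 and 48396 across the BODIPY-high libraries (here and below in the order of replicates 1, 2 and 3). Every BODIPY-high library lay below every BODIPY-low library, and the gap between the groups was wider than the range within either. The mean went from 61853 ± 1487 to 49233 ± 1766 (SD, n = 3 each), or 79.6% of the BODIPY-low level. The log2 fold change of Itgam was -0.33 (SE 0.08, 95% interval -0.50 to -0.16, limma adjusted p = 0.0156). An exact two-sided permutation test over the libraries gave p = 0.1, the smallest that 3 against 3 allows.

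Neutrophils also carry CD11b, and their markers without Csf3r summed to 79256, 29712 and 30532 normalised reads across the BODIPY-low and 464, 2292 and 197 across the BODIPY-high libraries. Their part in the Itgam values was not tested. The call of Itgam was lost without BODIPY-low replicate 2 (adjusted p = 0.0660) or BODIPY-high replicate 3 (0.0761), and held in the other 4 fits that leave out 1 library. Exons of Itgam share 3450 bases with those of the annotated gene Gm49368 on the same strand, which is not analysed here.

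Itgb2 (chromosome 10, 77530252 to 77565708), the shared beta subunit, had 30240.4, 30327 and 31959.9 normalised reads across the BODIPY-low and 31627, 29362 and 29833 across the BODIPY-high libraries. The groups overlapped, with BODIPY-high replicate 1 inside the BODIPY-low range and BODIPY-high replicates 2 and 3 below it. The means were 30843 ± 969 and 30274 ± 1195 (SD, n = 3 each), with a log2 fold change of -0.03 (95% interval -0.19 to 0.14, limma adjusted p = 0.861). The interval includes 0, and its lower part overlaps the Itgam interval of -0.50 to -0.16.

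Itgax (chromosome 7, 128129547 to 128150657) encodes CD11c, known from dendritic cells and from activated microglia. It had 828, 989.9 and 1577 normalised reads across the BODIPY-low and 1336, 1028 and 1541 across the BODIPY-high libraries. The highest and the lowest value both belonged to BODIPY-low libraries, and the groups overlapped. The log2 fold change was 0.24 (SE 0.22, 95% interval -0.25 to 0.73, limma adjusted p = 0.548).

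Itgal (chromosome 7, 127296260 to 127335138) encodes CD11a, the alpha subunit of LFA-1, which is abundant on lymphocytes, monocytes and neutrophils. It was sparse here, at 112, 55.4 and 129 normalised reads across the BODIPY-low and 11.3, 28.3 and 64.4 across the BODIPY-high libraries, from 12 to 139 recovered reads per library. BODIPY-low replicate 2 lay below BODIPY-high replicate 3, so the groups overlapped. The log2 fold change of -1.71 (95% interval -3.00 to -0.42) did not pass (limma adjusted p = 0.0813). In the same libraries 8 of 10 neutrophil and 4 of 7 monocyte markers fell, and the part of such cells in the Itgal values was not tested. Without BODIPY-high replicate 3 the log2 fold change of Itgal was -2.31 and passed (adjusted p = 0.0321), and without BODIPY-high replicate 1 it was -1.10 (0.177).

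Levels of different subunits were compared per kilobase of the longest annotated transcript. In BODIPY-low libraries Itgam led with 13211 ± 318 normalised reads per kilobase (SD, n = 3 here and below), followed by Itgb2 with 10385 ± 326, and the 2 did not overlap between libraries. In BODIPY-high libraries Itgam had 10515 ± 377 and Itgb2 10193 ± 402 per kilobase, and these overlapped. Below them in BODIPY-low libraries came Itgb1 with 4415 ± 68.9 and Itga6 with 3265 ± 336. Ptprc with 1511 ± 58.9 and Itgav with 1411 ± 135 overlapped and stood in the reverse order in BODIPY-high libraries, at 1134 ± 208 and 1143 ± 126. Itga9 had 511 ± 52.3 and Itgax 279.6 ± 97.4 per kilobase in BODIPY-low libraries, without overlap, and 357 ± 31.8 and 322 ± 63.8 in BODIPY-high libraries, with overlap. The lowest levels per kilobase were those of Itgal (18.9 ± 7.38 in BODIPY-low, 6.64 ± 5.19 in BODIPY-high) and Itga4 (8.68 ± 2.66 and 3.38 ± 1.51), which overlapped in both groups.

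**Figure D2:**
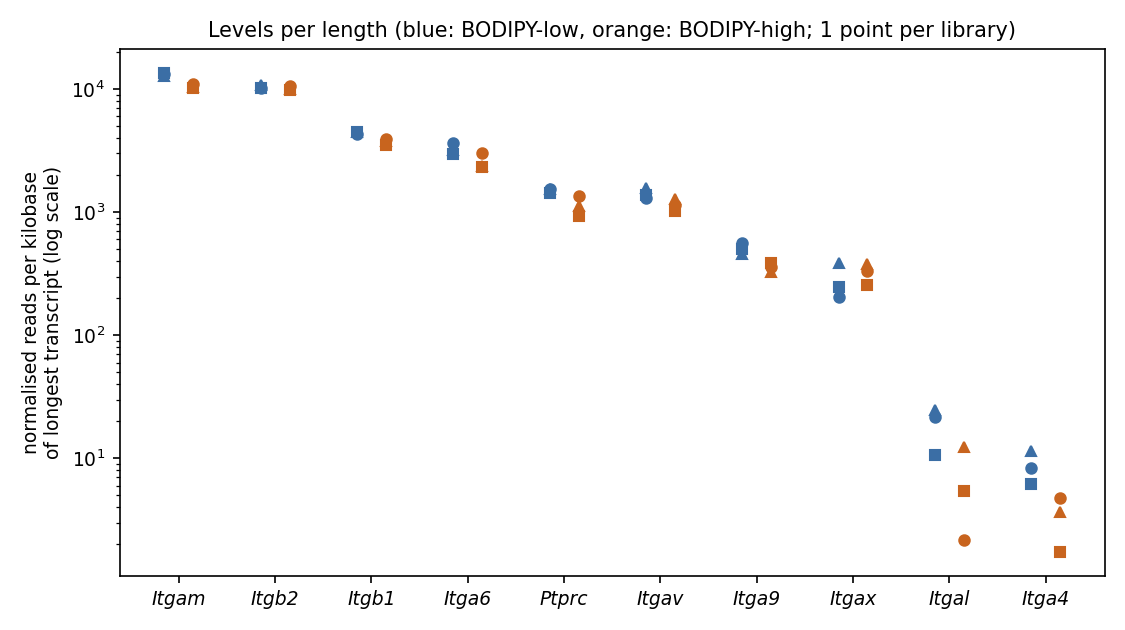
Normalised reads per kilobase of the longest transcript (vertical axis, log scale) for the 10 genes, ordered by their BODIPY-low mean, with 1 point per library (blue BODIPY-low, orange BODIPY-high; circle, square and triangle for replicates 1, 2 and 3). Itgam and Itgb2 lie highest, and Itgal and Itga4 lie below 25 reads per kilobase in every library.

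The summed level per kilobase of the alpha subunits that pair with beta2 (Itgam, Itgax and Itgal) was set against that of Itgb2 within each library, a ratio that does not depend on how libraries are scaled. It was 1.33, 1.35 and 1.23 across the BODIPY-low and 1.06, 1.06 and 1.07 across the BODIPY-high libraries. The groups did not overlap, and the BODIPY-high libraries differed little among themselves. The means were 1.30 ± 0.0599 and 1.06 ± 0.00441 (SD, n = 3 each), and a two-sided exact permutation test gave p = 0.1, which is as low as it can go. Itgam made up 96.3% to 98.3% of the alpha sum in the 6 libraries. With Itgam as the only alpha subunit, the mean ratio to Itgb2 was 1.27 for BODIPY-low and 1.03 for BODIPY-high. The summed ratio thus largely repeats the values of Itgam and Itgb2. It says little of Itgax and Itgal, whose log2 fold changes (0.24 and -1.71) had opposite signs and did not pass. It is a ratio of RNA and not of proteins.

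Among the 10 genes, Itgb1 and the alpha subunits that pair with beta1 had negative log2 fold changes. Of these, 1 passed the test, Itga9. Itga9 (chromosome 9, 118606690 to 118901003) encodes a receptor subunit for tenascin-C, osteopontin and VCAM-1. It had 3970.0, 3543 and 3238 normalised reads across the BODIPY-low and 2519, 2722 and 2276 across the BODIPY-high libraries. All BODIPY-high libraries lay below all BODIPY-low libraries. The mean fell from 3584 ± 367 to 2505 ± 223 (SD, n = 3 each), or 69.9% of the BODIPY-low level (log2 fold change -0.52, SE 0.11, 95% interval -0.75 to -0.28, limma adjusted p = 0.00999). Without BODIPY-high replicate 3 the adjusted p was 0.0551, and the call of Itga9 held in the other 5 fits that leave out 1 library.

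Itgb1 (chromosome 8, 128685654 to 128733200) had 16542, 16965 and 17024 normalised reads across the BODIPY-low and 14971, 13444 and 14386 across the BODIPY-high libraries. The groups did not overlap, yet the log2 fold change of -0.24 (95% interval -0.41 to -0.07) missed the threshold (limma adjusted p = 0.0646). Itgav (chromosome 2, 83724397 to 83806916), a subunit of vitronectin receptors that also takes part in the activation of TGF-beta, had 9154, 9699 and 11003 normalised reads across the BODIPY-low and 8017, 7197 and 8969 across the BODIPY-high libraries. These groups did not overlap either, although the highest BODIPY-high and the lowest BODIPY-low value lay close together. The log2 fold change of Itgav was -0.31 (95% interval -0.53 to -0.08, limma adjusted p = 0.0795). Exons of Itgav share 634 bases with Gm13684 on the other strand, which is not analysed here.

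Itga6 (chromosome 2, 71745616 to 71858416), a laminin receptor subunit, had 15601, 12724 and 13886 normalised reads across the BODIPY-low and 13037, 9973 and 10189.7 across the BODIPY-high libraries. BODIPY-high replicate 1 lay above BODIPY-low replicate 2, so the groups overlapped. Its log2 fold change was -0.35 (95% interval -0.61 to -0.10, limma adjusted p = 0.0717). Without BODIPY-high replicate 1 it was -0.48 and passed (adjusted p = 0.0143).

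Itga4 (chromosome 2, 79255426 to 79333123) encodes CD49d, which binds VCAM-1 and fibronectin and is known from blood leukocytes more than from microglia. It had 81.2, 60.7 and 112 normalised reads across the BODIPY-low and 46.2, 17.0 and 35.8 across the BODIPY-high libraries, from 15 to 121 recovered reads per library. The groups did not overlap. The log2 fold change of -1.40 (95% interval -2.39 to -0.41) did not pass (limma adjusted p = 0.0652). Neutrophil and monocyte markers moved in the same direction by medians of -5.71 and -4.10, and the part of such cells in the Itga4 values was not tested. Exons of Itga4 share 1124 bases with Cerkl on the other strand, a gene with 0 to 25.4 normalised reads per library. The strand that was counted is not given in the sources used here, so it is not known whether reads of Itga4 and Cerkl were mixed there.

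Ptprc (chromosome 1, 138062861 to 138175708, minus strand), the gene of CD45, fell in BODIPY-high libraries. It had 8884, 8282 and 8851 normalised reads across the BODIPY-low and 7721, 5334 and 6480.1 across the BODIPY-high libraries. All BODIPY-high libraries lay below all BODIPY-low libraries, and they were spread more widely. The mean went from 8673 ± 338 to 6511 ± 1194 (SD, n = 3 each), or 75.1% of the BODIPY-low level (log2 fold change -0.43, SE 0.12, 95% interval -0.70 to -0.16, limma adjusted p = 0.0392). With 1 library left out, the call of Ptprc remained in 1 of 6 fits, the one that omits BODIPY-high replicate 1 (adjusted p = 0.00784), and was lost in the other 5 (0.0764 to 0.132). With edgeR and DESeq2's size factors it was also lost (0.0537).

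**Figure D3:**
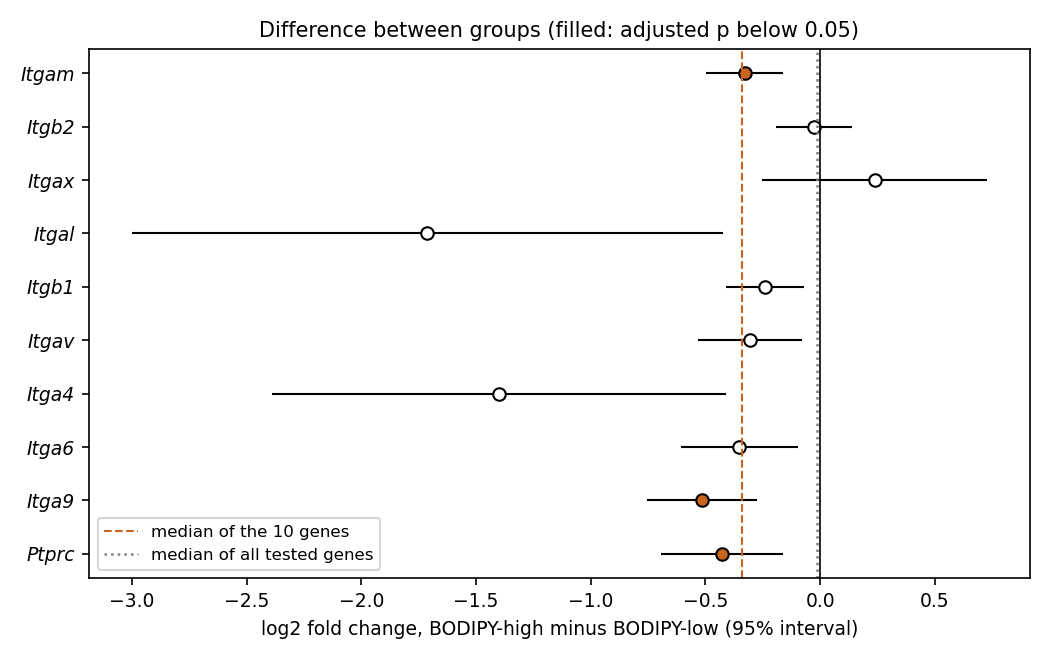
Log2 fold change, BODIPY-high minus BODIPY-low (horizontal axis), of each gene with its 95% limma interval. Filled points passed at an adjusted p below 0.05 (Itgam, Itga9 and Ptprc). The dashed line is the median of the 10 genes (-0.34) and the dotted line that of all tested genes (-0.01). Itgb2 and Itgax have intervals that include 0.

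The fit was repeated with each library scaled to the geometric mean of the 12 microglia markers, an alternative chosen after the data were seen. On the log2 scale this mean was 16.46, 16.28 and 16.25 across the BODIPY-low and 16.25, 16.26 and 16.15 across the BODIPY-high libraries. BODIPY-low replicate 1 was the highest, the groups overlapped, and 4 of the 12 markers (Trem2, Aif1, Fcrls and Siglech) had positive log2 fold changes. The scaling raised log2 fold changes by 0.11, and their median over all tested genes was 0.09. On that scale Itga9 kept its call (log2 fold change -0.41, limma adjusted p = 0.0247). Itgam (-0.22, adjusted p = 0.174) and Ptprc (-0.32, 0.167) lost theirs, and Itgb2 stood at 0.08 (0.700). On that scale 1 of the 10 genes was thus called lower, against 1.33% of all tested genes, which gave 170 calls lower and 1492 higher (451 and 1255 with the deposited scaling).

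Tested genes were ranked by how alike their log2 values over the 6 libraries were, with predicted and clone names left out. Most like Itgam were Ltb4r1, Gpr107 and Zfp770 (Pearson correlation 0.996, 0.995 and 0.994). Most like Ptprc were Maff, Atxn7 and Tgfbr1 (0.995, 0.995 and 0.993). A correlation does not depend on the size of a change. The log2 fold changes were -4.58 for Ltb4r1, -0.28 for Gpr107 and -0.86 for Zfp770. They were -0.68 for Maff (limma adjusted p = 0.487), -0.49 for Atxn7 (0.134) and -0.38 for Tgfbr1 (0.0297). The correlations are descriptions, since the 6 points fall into the 2 groups and the genes are the highest of those ranked from the 12821 tested.

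Other genes of integrin and CD45 biology were read in 6 lists. Of 89 tested genes in these lists 11 rose, 10 fell and 68 did not pass, which is 12.4% higher and 11.2% lower, against 9.79% and 3.52% of all tested genes. Of the 89 genes 8 had a mean below 10 normalised reads in 1 of the groups, so that they passed the filter on low values through the other group only. The other 81 genes included 8 that rose and 8 that fell. Without BODIPY-low replicate 3 the falls numbered 4, and without BODIPY-low replicate 2 or BODIPY-high replicate 3 they numbered 5. Choroid plexus markers rose (median 4.60) and neutrophil markers fell (median -5.71) in the same comparison, and their part in these counts was not tested.

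**Figure D4:**
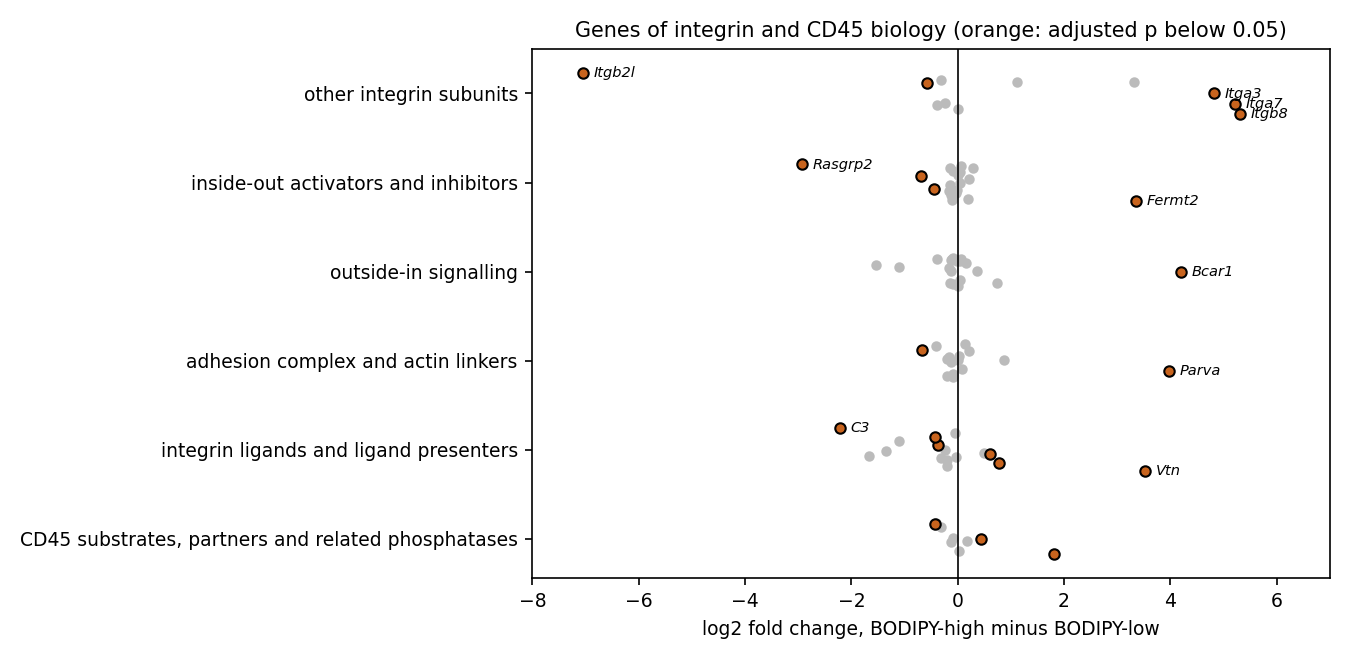
Log2 fold change, BODIPY-high minus BODIPY-low (horizontal axis), of the 89 tested genes in 6 lists of integrin and CD45 biology (vertical axis, with points spread to be seen). Orange points passed at an adjusted p below 0.05, and those beyond 2 in size are named. Most genes lie near 0, and Itgb8, Itga7 and Itga3 lie farthest to the right and Itgb2l farthest to the left.

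Of 11 tested subunits outside the 10 genes, 3 rose and 2 fell (median log2 fold change -0.00). Itgb8, which pairs with the Itgav product to activate TGF-beta, rose from 6.73 ± 7.53 to 190 ± 56.4 reads after normalisation (SD, n = 3 each, log2 fold change 5.31, limma adjusted p = 0.00188 without a filter on low values). Itga7 and Itga3, both laminin receptor subunits, rose by 5.22 (adjusted p = 0.00396 without a filter) and 4.83 (0.00681) on the log2 scale. Itga7 was at 0 in BODIPY-low replicates 2 and 3, Itga3 in replicate 2 and Itgb8 in replicate 3, so these log2 fold changes depend on the pseudocount. With a pseudocount of 10 they were 3.63 for Itgb8, 2.88 for Itga7 and 3.33 for Itga3. Choroid plexus markers moved the same way (median 4.60). Itgb2l, a beta2-like subunit found in neutrophils, fell from 393 ± 229 to 2.09 ± 2.12 (-7.05, or -4.93 with a pseudocount of 10, limma adjusted p = 4.64e-05 without a filter), beside the fall of the neutrophil markers. Itgb3, the beta subunit of the classical vitronectin receptor, fell from 4684 ± 472 to 3188 ± 797 (-0.58, limma adjusted p = 0.0321). The call of Itgb3 held in 1 of 6 fits with 1 library left out (adjusted p up to 0.120, and 0.0530 when scaled to microglia markers).

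Itgb5, another beta partner of the Itgav product, was singled out after its values were seen. It had 118459.99 to 125189 normalised reads per library, and its log2 fold change was -0.00 (limma adjusted p = 0.991). The ratio of Itgav to Itgb5 per kilobase was 0.0348, 0.0360 and 0.0432 across the BODIPY-low and 0.0303, 0.0278 and 0.0342 across the BODIPY-high libraries (two-sided exact permutation test p = 0.1, which is as low as it can go). The groups did not overlap, as in Itgav itself. Since Itgb5 differed little between the libraries and was chosen with this known, the ratio and its p-value largely repeat the Itgav values. They are not separate evidence.

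**Figure D5:**
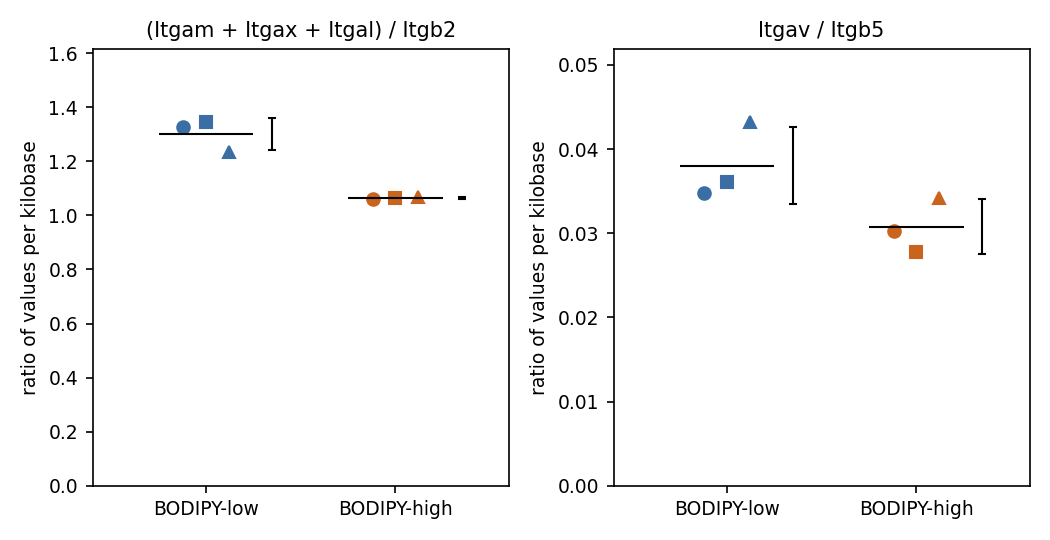
Ratio of values per kilobase (vertical axes, from 0) of the 3 alpha subunits to Itgb2 (left) and of Itgav to Itgb5 (right) in each library, with the group mean as a line and 1 SD as a bar. In both panels the 3 BODIPY-high libraries (orange) lie below the 3 BODIPY-low libraries (blue).

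Of 19 tested genes that switch integrins on or off from inside the cell, 1 rose and 3 fell (median log2 fold change -0.03). Flna, or filamin A, which competes with talin for the beta tail and ties it to actin, fell from 4985 ± 643 to 3070.3 ± 305 reads after normalisation (SD, n = 3 each, log2 fold change -0.70, limma adjusted p = 0.00268). Apbb1ip, the Rap1 effector RIAM that brings talin to integrins, fell by 0.44 on the log2 scale (adjusted p = 0.0332), and Rasgrp2, an activator of Rap1 known from platelets and neutrophils, fell from 21.4 ± 5.68 to 1.91 ± 0.339 (log2 fold change -2.92, or -1.38 with a pseudocount of 10, adjusted p = 0.0114 without a filter). Fermt2, the kindlin of non-haematopoietic cells, rose from 6.34 ± 2.99 to 77.7 ± 44.5 (3.35, or 2.32 with a pseudocount of 10, adjusted p = 0.00392 without a filter). Tln1 (talin) and Fermt3, the kindlin of leukocytes, had log2 fold changes of -0.01 and 0.05 (adjusted p = 0.962 and 0.768) and are named after their values were seen. With 1 library left out, the call of Apbb1ip held in 2 of 6 fits (adjusted p up to 0.147), and that of Rasgrp2 in 2 of the 5 fits in which it passed the filter (up to 0.124).

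Among 19 tested genes that signal from bound integrins, 1 rose and 0 fell (median -0.08, limma). Bcar1, the docking protein p130Cas, rose from 17.3 ± 10.4 to 294 ± 67.8 reads after normalisation (SD, n = 3 each, log2 fold change 4.21, limma adjusted p = 3.42e-04), where choroid plexus markers moved by a median of 4.60. The other 18 genes, which include the Src family kinases and Syk, did not pass. Of 15 tested genes of the adhesion complex, Parva (alpha-parvin) rose from 64.9 ± 42.4 to 866 ± 365 (3.98, adjusted p = 0.00109) and Vcl (vinculin) fell from 841 ± 95.2 to 530.4 ± 95.8 (-0.67, adjusted p = 0.0190). The call of Vcl held in 3 of 6 fits with 1 library left out (adjusted p up to 0.0609) and was lost when scaled to microglia markers (0.0584).

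Ligands moved in both directions, with 3 of 16 tested genes higher and 3 lower (median -0.23). C3, the complement component whose cleaved form is bound by CD11b/CD18 and CD11c/CD18, had 907, 919.6 and 1174 normalised reads across the BODIPY-low and 181, 173 and 305 across the BODIPY-high libraries. The groups were far apart. C3 fell by 2.22 on the log2 scale (limma adjusted p = 1.35e-04) and held its call in 6 of 6 fits with 1 library left out. Nrros, which holds latent TGF-beta on microglia, fell by 0.43 on the log2 scale (adjusted p = 0.0429) and F11r, or JAM-A, a ligand of LFA-1, fell by 0.37 (0.0488). With 1 library left out, Nrros held in 2 of 6 fits and F11r in 0 of 6 (adjusted p up to 0.155 and 0.179).

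Mfge8, a bridge from apoptotic cells to alpha-v integrins, rose from 1315 ± 123 to 2260.2 ± 224 reads after normalisation (SD, n = 3 each, log2 fold change 0.78, limma adjusted p = 0.00145). Vcam1, which binds alpha4 and alpha9 integrins, rose from 1874 ± 168 to 2877 ± 585 (0.60, adjusted p = 0.0216), a call held in 2 of 6 fits with 1 library left out (adjusted p up to 0.0993). Vtn, or vitronectin, rose from 13.5 ± 9.27 to 151 ± 46.3 (3.53, adjusted p = 0.00115). The median of the choroid plexus markers in this comparison was 4.60.

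Among 9 tested substrates, partners and relatives of CD45, 2 rose and 1 fell (median -0.09). Pag1, the adaptor that holds the kinase Csk near Src family kinases, fell from 8574 ± 407 to 6387 ± 678 reads after normalisation (SD, n = 3 each, log2 fold change -0.43, limma adjusted p = 0.0127). Its call held in 4 of 6 fits with 1 library left out (adjusted p up to 0.0689) and was lost when scaled to microglia markers (0.0687). Cd22, a sialic acid-binding inhibitory receptor that can bind CD45, rose by 0.44 (adjusted p = 0.0322), held in 2 of 6 such fits (up to 0.123), and Lgals1, or galectin-1, rose from 74.9 ± 24.1 to 264 ± 77.1 (1.81, adjusted p = 0.00359).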

How the data were processed

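Per the design text and the submitters' processing notes, reads were checked with FastQC 0.11.4, mapped with STAR 2.5.3a to mm10 (the notes list mm9 as well), counted per gene by STAR and compared with DESeq2 by the authors. Which annotation and strand column were counted is not given in the sources used here. What the authors deposited is a signal: read counts over 1 size factor per library, called normalised reads in the text. Whole reads came back for 100% of the values (tolerance 0.01 read).

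The test was limma 3.58.1 under R 4.3.3 on log2(value + 1), two-sided, with a variance trend and no block. Alternatives on recovered reads were edgeR 4.0.16 (with TMM, 427 calls lower and 1215 higher) and DESeq2 1.42.0. Scripts were tested on simulated data. The smallest two-sided permutation p for 3 against 3 is 0.1. Coordinates, transcript lengths and shared exons come from GENCODE M21 (GRCm38, the assembly of mm10), promoters from RefSeq (GRCm38.p6). Read values carry no molecular identifiers.

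The 10 genes, the lists and the tests were chosen with earlier results of these data known. The text names all 10 genes, up to 6 called genes per list by size of change, and the 3 genes most like Itgam and Ptprc (predicted and clone names left out). Genes of other markers were read in 13 lists, of which the T and NK cell, B cell, endothelium, platelet and oligodendrocyte lists had 0 calls, the dendritic cell, astrocyte and neuron lists 1 call each, and the microglia, neutrophil, monocyte, border macrophage and choroid plexus lists those given above.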

Additional observations from a re-analysis of the deposited data

How the results depend on the processing

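The count of genes called lower among the 10 was 3. It was 6 with DESeq2 (which called 5.23% of all tested genes lower), 8 with the replicate number as a block (5.93% of all tested genes) and 1 when scaled to microglia markers, and ranged from 1 to 6 with 1 library left out (1 without BODIPY-low replicate 2 or BODIPY-high replicate 3, 6 without BODIPY-high replicate 1). The count of genes called higher was 0 under every alternative run. Pathway genes called lower numbered 10, or 4 when scaled to microglia markers and 4 to 8 with 1 library left out. Of all tested genes 451 were called lower, or 760 with the replicate block, 170 when scaled to microglia markers and 151 to 527 with 1 library left out, and 1255 were called higher, or 662 to 1309 with 1 library left out. Itgb2 reversed its sign, to 0.0800, when scaled to microglia markers. The cause of these changes was not tested.

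Libraries of the same number were not treated as pairs, since the labels do not say what they share: deviations from the group means correlated by 0.11, 0.14 and 0.07 between libraries of the same number over the tested genes, and each library correlated best with its own number, a hint from the data and not from the design. For the 10 genes, the block added the calls of Itga4, Itgal, Itga6 (adjusted p = 0.00523), Itgav and Itgb1. The ratio of alpha subunits to Itgb2 differed by -0.24 and kept its sign with mean transcript lengths and with each library left out. Other scaling (TMM, upper quartile), pseudocounts and filters kept the calls of Itgam, Itga9 and Ptprc, and a pseudocount of 10 added Itga4 (adjusted p = 0.0495). Reads of Itgal and Itga4, at 12 to 139 and 15 to 121 per library, limit the precision of those genes.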
